A study of Mus musculus with 14 samples.

Results

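Potassium channel genes were followed through mouse hypothalamus as protein-coding genes whose symbol begins with Kcn, a family letter code and a number, with Kcne2 left out. The rule gave 66 genes of 14531 entries in the deposited expression table. They fall into 15 families, and comprise 55 genes for pore-forming or silent channel subunits and 11 for auxiliary subunits. Of the 66, 57 had a mean of at least 1 FPKM (fragments scaled to transcript length and to the mapped total of the library) over all libraries and were tested, beside 12427 other entries. Just above that limit were Kcnv1, Kcnj4 and Kcnh1, with mean levels of 1.06, 1.37 and 1.496 FPKM. Just below it were Kcnh3, Kcnk6 and Kcna5, at 0.786, 0.743 and 0.643 FPKM. Others below it were Kcnh6, Kcnh8, Kcnk12, Kcnk4 and Kcnmb1. Kcnj8, Kcnj13 and Kcnk13 were not analysed here.

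Potassium channels let potassium leave the cell, or hold the resting potential, and so set how readily a neuron fires. Voltage-gated Kv channels open on depolarization and repolarize the action potential, with Kv3 channels known for the fast closing that lets neurons fire at high rates. Inward rectifiers (Kir) pass current near rest: the Kir3 group opens on G-protein signals, Kir6.2 closes when ATP is high, and Kir4.1 clears potassium in astrocytes. Auxiliary subunits such as Kv beta, the Kv channel-interacting proteins (KChIP) and the BK beta subunits change the gating or traffic of the pores they join. In the hypothalamus, potassium channels of these kinds are known to carry responses of feeding neurons to glucose and hormones.

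The mice were 10-week-old C57BL/6N males kept for 3 days on control diet or on high-fat diet, and the only tissue was hypothalamus. Ribosomes were immunoprecipitated by the phosphoribotrap method, which takes ribosomes whose S6 protein is phosphorylated, a mark that follows neuronal activity but can be carried by any cell. Each immunoprecipitation (IP) started from 8 pooled hypothalami, with 4 IPs per condition according to the labels. Input and IP were each represented by 3 libraries from the control-diet mice and 4 from the high-fat mice. Every group shares strain, sex, age and tissue, and the groups differ in fraction and diet. The deposited columns number the libraries of each group from 0, and these numbers could not be tied to those in the sample titles.

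Mitochondrial transcripts took 23.5% to 39.1% of the FPKM total of input libraries and 2.66% to 15.6% of that of IP libraries, with the highest IP shares in the libraries numbered 0 of both diets. Those libraries also listed 9.57% and 10.8% of all entries at 0, against 0.771% to 5.17% in the other IP libraries. Between 0 and 6 of the 66 channel genes were listed at 0 in an IP library, and 0 or 1 in an input library. Neuronal markers were higher in IP for 8 of 9 genes tested and astrocyte markers lower for 8 of 9, with the summed astrocyte level falling from 803 to 904 FPKM in input to 240.5 to 527 in IP. Mature oligodendrocyte markers were lower for 7 of 10 genes and higher for 1. Markers of the thalamus, which borders the dissected tissue, were higher for 6 of 8 genes and lower for 1, with summed levels of 606 to 720 FPKM in input and 1956 to 3145 in IP. Choroid plexus markers were higher for 5 of 7 genes and blood cell markers for 4 of 5. Beside these counts, 23.4% of all tested entries were higher in IP and 20.5% lower. In bulk RNA, fewer cells of a type giving ribosomes to the IP and less RNA taken per cell cannot be told apart. The depth of the libraries is unknown, since the files give FPKM and no counts.

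In input, the most abundant channel transcript per unit length was that of Kcnj10, at a mean of 72.7 FPKM over the 7 libraries, followed by Kcna2 at 71.4, Kcnip4 at 56.0, Kcnc2 at 49.3 and Kcnc1 at 49.1. In IP the order began with Kcnc1 at 168 FPKM, then Kcnj3 at 107, Kcnc2 at 103, Kcnip4 at 92.7 and Kcnab3 at 81.6. Kcnab3 moved from place 30 to place 5 and Kcnj10 from place 1 to place 11. Neighbours in these orders mostly overlapped between libraries: Kcnj10 and Kcna2 in input spanned 63.95 to 89.8 and 68.04 to 73.9 FPKM. The summed level of the 66 genes was 874 to 974 FPKM in the 7 input libraries. It was 1293 to 1854 FPKM in the 7 IP libraries, with no overlap. With library FPKM totals set equal, the sums in relative units were 2180 to 2771 in input and 2983 to 4544 in IP, also apart. With totals set equal after leaving out mitochondrial transcripts, the sums were 3208 to 3877 in input and 3532 to 4668 in IP, which overlap. The separation thus depended on the scaling.

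Comparing IP with input asks which channel transcripts were carried by phosphorylated ribosomes more or less than their share of the tissue. Over both diets, 22 of the 57 tested genes were higher in IP, 8 were lower and 27 did not pass the test (limma on log2(FPKM + 1), Benjamini-Hochberg adjusted p under 0.05 over all entries). The 30 called genes are 52.6% of those tested, against 43.9% of all entries. The 22 are 38.6% of the channel genes, against 23.4% of all entries called higher, and the 8 are 14% against 20.5% called lower. The median log2 change was 0.44 for the channel genes and 0.00 for all entries (0.12 and -0.05 under quantile normalization), with 39 of 57 channel genes above 0 against 50.2% of all entries. Auxiliary subunits were higher in 7 of 10 tested cases and lower in 0, with a median of 0.68. Pore-forming and silent subunits were higher in 15 of 47 cases and lower in 8, with a median of 0.27. The 2 classes also differ in length. Longest transcripts ran from 1626 to 4382 bases in the auxiliary genes and from 1902 to 14845 in the others. The part of length in this contrast was not tested. In 15 genes (26.3%, against 24.8% of all entries) no IP library of either diet fell within the range of its input. Of these 12 were higher (21.1% against 14.6%) and 3 lower (5.26% against 10.2%). Quantile normalization gave 19 higher and 11 lower, against 2831 and 3439 of all 12484 entries. Removal of the trend with transcript length gave 26 higher and 2 lower, against 2485 and 2232 of 12474 entries. The calls for 11 higher genes and 2 lower genes held under every alternative and with any 1 library left out, and 16 of the 27 genes not called passed under at least 1 of these. Among the 11 were Kcna1, Kcna6, Kcnab1, Kcnab3, Kcnc1, Kcnj3, Kcnj11, Kcnmb2, Kcnmb4 and Kcns3, and the 2 were Kcna3 and Kcnj16.

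**Figure D1:**
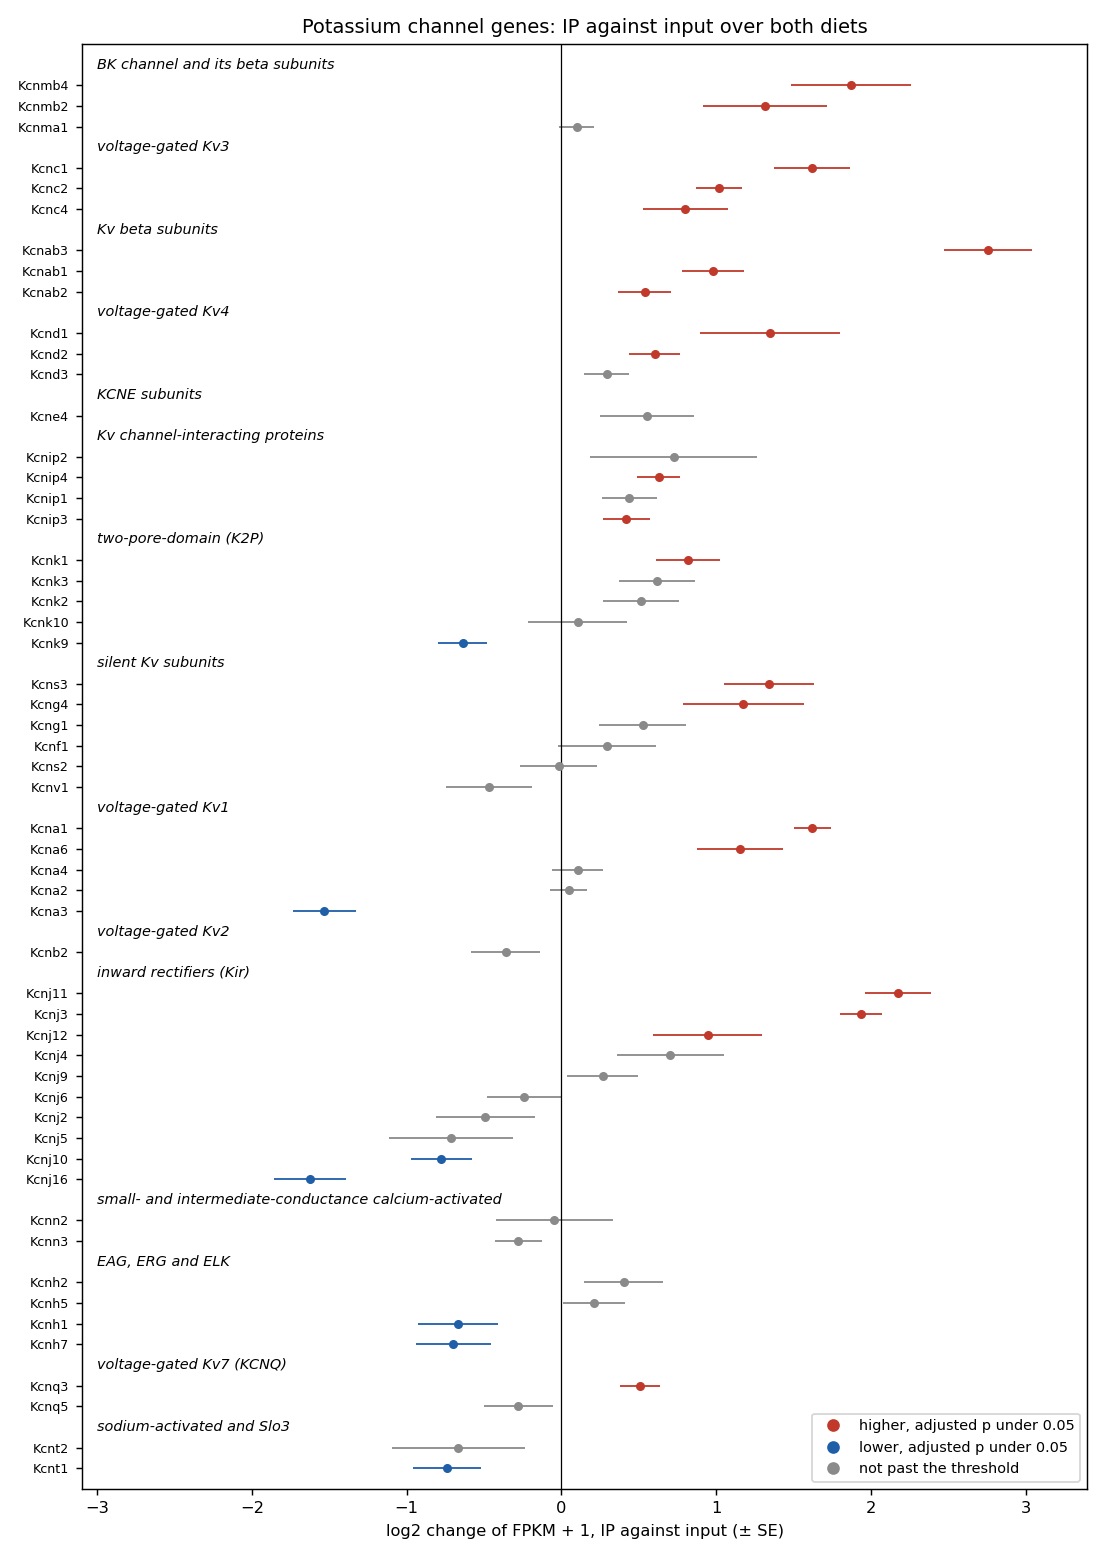
Log2 change of FPKM + 1 in IP against input over both diets for 54 of the 57 tested potassium channel genes, grouped by family, with bars of 1 standard error. Red points are higher and blue points lower at an adjusted p under 0.05, and Kcnc1, Kcnc2, Kcnc4 and all 3 Kv beta genes are red.

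In the Kv3 family, the channels of fast-firing neurons, Kcnc1, Kcnc2 and Kcnc4 were higher in IP. Kcnc1, which encodes Kv3.1, lies at chr7:46396497-46438704 on the plus strand of GRCm38. Its levels in input were 45.2, 50.7 and 50.6 FPKM on control diet and 51.8, 47.6, 46.5 and 50.8 on high-fat diet. In IP they were 82.2, 127 and 363 on control diet and 178, 128, 124 and 175 on high-fat diet. Every IP library was above every input library, and the control-diet IP libraries differed among themselves by over 4-fold. The log2 change was 1.62 ± 0.24 (SE; adjusted p = 7.67e-05). The 250 bases upstream of the RefSeq start of Kcnc1, on GRCm38.p6 at chr7:46396218-46396467, plus strand, are shown because this gene led the IP levels. They hold 3 matches to the GC box GGGCGG, read on either strand and set in capitals, and no TATAAA.
Kcnc1: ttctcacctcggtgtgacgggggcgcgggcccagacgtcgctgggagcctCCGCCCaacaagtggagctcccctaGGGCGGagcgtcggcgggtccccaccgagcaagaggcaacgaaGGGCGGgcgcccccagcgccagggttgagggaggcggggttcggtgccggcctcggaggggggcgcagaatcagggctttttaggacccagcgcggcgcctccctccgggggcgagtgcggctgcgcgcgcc
RefSeq promoters matched 47 of the 66 genes, with 69 windows. A GC box was found in 44.9% of these and in 32.7% of all 32851 windows of the same length, and TATAAA in 2.9% against 12.4%. A GC box was in 10 of the 27 windows of genes called higher in IP and in 5 of the 8 of genes called lower. A match is a string of letters and not a shown binding site.

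Kcnc2 and Kcnc4 followed with smaller differences than Kcnc1. Kcnc2 (Kv3.2) spanned 40.8 to 54.6 FPKM in input and 69.4 to 126 in IP, a log2 change of 1.02 ± 0.15, which lost its call under quantile normalization at 0.25 (adjusted p = 0.214). Kcnc4 (Kv3.4) was far less abundant, at 4.31 to 6.22 and 3.27 to 20.4 FPKM, and its fractions overlapped through a control-diet IP library at 3.27. Its call (log2 change 0.80 ± 0.28, adjusted p = 0.0280) ended in 5 of the 14 fits without 1 library, with changes of 0.55 to 1.05 across the 14. Thalamus markers rose in the same IP libraries, and their part in the Kv3 values was not tested.

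The Kv1 family, which sets firing threshold at axon initial segments and along axons, split by member. Kcna1 (Kv1.1) rose: control-diet input held 26.8, 24.8 and 23.9 FPKM, high-fat input 22.7, 21.5, 19.9 and 21.4, control-diet IP 70.2, 56.7 and 80.1 and high-fat IP 83.6, 67.7, 88.1 and 77.7. The fractions were well apart, and the log2 change was 1.62 ± 0.12 (SE; adjusted p = 5.26e-08). Kcna6 (Kv1.6), whose gene neighbours Kcna1 on chromosome 6, rose from 18.9 to 21.6 FPKM in input to 24.3 to 135 in IP, a log2 change of 1.15 ± 0.28. The top IP value came from a control-diet library numbered 2, and the change was 0.82 to 1.43 with 1 library left out in turn. Kcna2 (Kv1.2) was among the most abundant channels in both fractions and did not pass the test, at 68.04 to 73.9 FPKM in input and 56.8 to 91.5 in IP. Its log2 change was 0.05 ± 0.12 (95% interval -0.21 to 0.31), and it became -0.71 under quantile normalization and 0.67 with the length trend removed, both past the threshold. The median ratio of Kcna1 to Kcna2 was 0.308 in input and 0.988 in IP, and the ranges, 0.291 to 0.392 and 0.687 to 1.37, did not overlap. Kcna4, which encodes the A-type subunit Kv1.4, was at 9.59 to 15.98 FPKM in input and 10.8 to 16.6 in IP (log2 change 0.11 ± 0.17).

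Kcna3 (Kv1.3), known from T cells and microglia as well as neurons, went the other way. Control-diet input held 2.23, 3.77 and 3.33 FPKM and high-fat input 2.05, 2.36, 2.92 and 2.66, while control-diet IP held 0.136, 0.701 and 0.530 and high-fat IP 0, 0.261, 0.0758 and 0.410. Every IP value lay under every input value, and 1 IP library listed the gene at 0. The log2(FPKM + 1) change was -1.53 ± 0.20 (SE; adjusted p = 2.20e-05), a scale that understates changes of genes this low. Microglial markers were called for 1 of 8 genes, and that one was higher in IP, with a list median of -0.05. The part of any cell type in the Kcna3 values was not tested. The gene has 1 annotated exon and a longest transcript of 1902 bases, and it lies beside Kcna2 on chromosome 3.

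Each of the 3 Kv beta subunits, cytoplasmic partners that speed inactivation or aid surface traffic of Kv1 channels, was higher in IP. Kcnab3, at chr11:69326258-69333042, plus strand, GRCm38, showed the largest log2 change of all 57 tested channel genes. Input held 9.29, 9.83 and 9.72 FPKM on control diet and 10.2, 9.64, 8.43 and 11.3 on high-fat diet. IP held 176, 51.5 and 36.7 on control diet and 59.8, 51.96, 114 and 81.2 on high-fat diet, so the fractions were far apart and the control-diet IP libraries were spread widely. The log2 change was 2.76 ± 0.29 (SE; adjusted p = 1.84e-06), a 6.75-fold difference on the log2(FPKM + 1) scale. An antisense gene, Kcnab3os, overlaps its exons, and the labels name no strand-keeping step, so reads of both cannot be told apart. Kcnab1 rose from 8.55 to 12.7 to 13.1 to 33.1 FPKM without overlap (log2 change 0.98 ± 0.20). Kcnab2 differed least, at 10.003 to 15.9 and 15.7 to 28.03 FPKM, and its log2 change of 0.54 ± 0.17 lost its call without control-diet input library 0, at 0.47, under quantile normalization, at 0.19, and with array weights, at 0.48. The median ratio of Kcnab3 to Kcnab2 was 0.707 in input and 3.30 in IP.

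Among the KChIP genes, calcium-binding partners of Kv4 channels, 2 of 4 were called higher. Kcnip4 measured 57.8, 56.7 and 57.8 FPKM in control-diet input, 50.1, 51.5, 56.6 and 61.9 in high-fat input, 77.9, 89.3 and 53.7 in control-diet IP and 103, 86.3, 134 and 106 in high-fat IP. The control-diet fractions overlapped through an IP library at 53.7 FPKM and the high-fat fractions did not. Its log2 change was 0.63 ± 0.14 (SE; adjusted p = 0.00169) and turned to -0.13 under quantile normalization. Kcnip3 spanned 24.01 to 38.3 and 30.8 to 54.2 FPKM, and its call (log2 change 0.42 ± 0.15, adjusted p = 0.0328) turned to -0.11 under quantile normalization and ended in 8 of the 14 fits without 1 library. Kcnip1 (0.44 ± 0.18) and Kcnip2 (0.73 ± 0.54) did not pass, and Kcnip2 ranged from 0.822 to 33.7 FPKM across IP libraries against 4.86 to 6.48 in input.

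The BK channel, which opens on calcium and voltage together and shapes the after-potential, differed between its pore and its beta subunits. Its pore gene Kcnma1 was at 43.9 to 53.5 FPKM in input and 42.5 to 59.8 in IP, a log2 change of 0.10 ± 0.12 (95% interval -0.15 to 0.34) that turned to -0.58 under quantile normalization and rose to 0.74 with the length trend removed. Kcnmb4, the beta subunit typical of neurons, measured 3.97, 8.25 and 5.20 FPKM in control-diet input and 5.85, 5.38, 6.996 and 6.81 in high-fat input. In IP it measured 52.1, 25.8 and 6.499 on control diet and 51.1, 14.9, 18.5 and 41.9 on high-fat diet, overlapping input on control diet through 1 library. The log2 change was 1.87 ± 0.39 (SE; adjusted p = 0.00112). Its exons overlap the antisense gene Kcnmb4os2, which went from a mean of 0.271 FPKM in input to 3.88 in IP. Kcnmb2, a beta subunit that gives inactivation, was at 1.09 to 1.95 FPKM in input and 1.06 to 21.1 in IP (log2 change 1.31 ± 0.40). The median ratio of Kcnmb4 to Kcnma1 was 0.119 in input and 0.504 in IP, with ranges that overlapped between 0.124 and 0.154.

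Silent Kv subunits, which form no channel alone and modify Kv2 partners, were higher in 2 of 6 tested cases. Kcns3 (Kv9.3) measured 2.78, 1.38 and 1.43 FPKM in control-diet input, 1.66, 1.71, 1.65 and 1.65 in high-fat input, 6.38, 4.85 and 17.2 in control-diet IP and 2.48, 6.78, 3.34 and 5.10 in high-fat IP. No fractions of a diet overlapped, and the log2 change was 1.34 ± 0.29 (SE; adjusted p = 0.00167). Kcng4 (Kv6.4) was at 2.28 to 3.29 FPKM in input and 2.16 to 17.9 in IP, and its call at a log2 change of 1.18 ± 0.39 ended without control-diet IP library 0 (0.97) or 2 (0.95). Kcng1, Kcnf1, Kcns2 and Kcnv1 did not pass, with log2 changes from -0.47 to 0.53. Kcnb2, a Kv2 pore, did not pass either, at a log2 change of -0.36 ± 0.22, and turned to 0.36 with the length trend removed.

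The 10 inward rectifier genes spanned the widest range of changes of any family, with 3 higher, 2 lower and 5 not called. Kcnj11 encodes Kir6.2, the pore of the ATP-sensitive channel, and lies at chr7:46093953-46100764, minus strand, GRCm38. Its input libraries held 3.39, 3.96 and 3.14 FPKM on control diet and 4.41, 4.12, 4.80 and 4.84 on high-fat diet, and its IP libraries 27.3, 18.8 and 27.1 and 20.98, 32.8, 14.8 and 13.1. The fractions did not overlap, and the log2 change was 2.18 ± 0.21 (SE; adjusted p = 9.75e-07). Abcc8, which encodes the sulfonylurea receptor partner of Kir6.2, was not called: its mean was 2.45 ± 0.869 FPKM (SD, n = 7) in input and 2.08 ± 1.13 in IP, a log2 change of -0.21 ± 0.32 (SE).

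Within the Kir3 group of G-protein-gated channels, Kcnj3 (Kir3.1) was called higher, and its partners Kcnj6 and Kcnj9 were called under 1 alternative each. Its levels were 18.5, 24.4 and 25.4 FPKM in control-diet input, 25.6, 30.9, 32.2 and 35.01 in high-fat input, 91.01, 80.8 and 106 in control-diet IP and 112, 105, 150.2 and 106 in high-fat IP. The lowest IP library was more than 2-fold above the highest input library. The log2 change was 1.94 ± 0.14 (SE), with the smallest adjusted p of the channel genes, 2.65e-08. Kcnj6 (Kir3.2) was at 16.3 to 25.4 FPKM in input and 7.86 to 31.4 in IP, and Kcnj9 (Kir3.3) at 20.6 to 27.3 and 13.4 to 46.4, neither past the threshold. Their log2 changes of -0.24 ± 0.24 and 0.27 ± 0.23 moved with processing. Kcnj6 was 0.0169 without control-diet IP library 1 and was called lower under quantile normalization, at -0.65 (adjusted p = 0.0149). Kcnj9 was -0.20 under quantile normalization and was called higher without both IP libraries numbered 0, at 0.51 (adjusted p = 0.0192). The ratio of Kcnj3 to Kcnj6 was 1.05 to 1.75 in input and 2.90 to 10.3 in IP, and that of Kcnj3 to Kcnj9 was 0.897 to 1.28 and 2.29 to 8.37. Kcnj5 (Kir3.4) was low and did not pass (log2 change -0.71 ± 0.40), except without high-fat IP library 0 (-0.92) or control-diet IP library 2 (-0.99).

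Kcnj10 (Kir4.1) and Kcnj16 (Kir5.1), which join into the potassium-clearing channel of astrocytes, were both lower in IP. Kcnj16 measured 19.7, 16.03 and 16.3 FPKM in control-diet input, 17.9, 17.1, 17.6 and 19.5 in high-fat input, 6.78, 3.72 and 12.6 in control-diet IP and 2.78, 2.94, 3.53 and 5.70 in high-fat IP. Input and IP did not overlap, and the log2 change was -1.62 ± 0.23 (SE; adjusted p = 4.98e-05). Kcnj10 held 66.9, 69.9 and 63.95 FPKM in control-diet input and 89.8, 65.2, 78.9 and 74.1 in high-fat input. In IP it held 68.4, 23.2 and 47.2 on control diet and 49.9, 35.9, 46.3 and 32.5 on high-fat diet, and it overlapped input on control diet through the library numbered 0. The log2 change was -0.78 ± 0.20 (SE; adjusted p = 0.00517) and became -0.50 (adjusted p = 0.0511) with the length trend removed. Astrocyte markers moved the same way in the same libraries, at 8 of 9 lower and a median of -1.36, and their part in these values was not tested. Shown for contrast with Kcnc1, the 250 bases upstream of the Kcnj10 start at chr1:172340960-172341209, plus strand, GRCm38.p6 in RefSeq, hold 2 GC boxes (capitals, here the reverse-strand letters) and no TATAAA.
Kcnj10: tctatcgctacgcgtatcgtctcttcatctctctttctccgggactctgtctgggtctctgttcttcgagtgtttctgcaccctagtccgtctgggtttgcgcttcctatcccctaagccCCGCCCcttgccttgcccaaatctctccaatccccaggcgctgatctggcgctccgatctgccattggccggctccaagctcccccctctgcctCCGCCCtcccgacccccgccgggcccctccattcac
The Kcnj9 gene lies beside Kcnj10 on chromosome 1, and Kcnj2 beside Kcnj16 on chromosome 11, and neither neighbour was called. Kcnj2 (Kir2.1) had a log2 change of -0.49 ± 0.32, Kcnj4 (Kir2.3) of 0.70 ± 0.35, and Kcnj12 (Kir2.2) was called higher at 0.94 ± 0.35 (adjusted p = 0.0406), a call that ended in 12 of the 14 fits without 1 library.

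**Figure D2:**
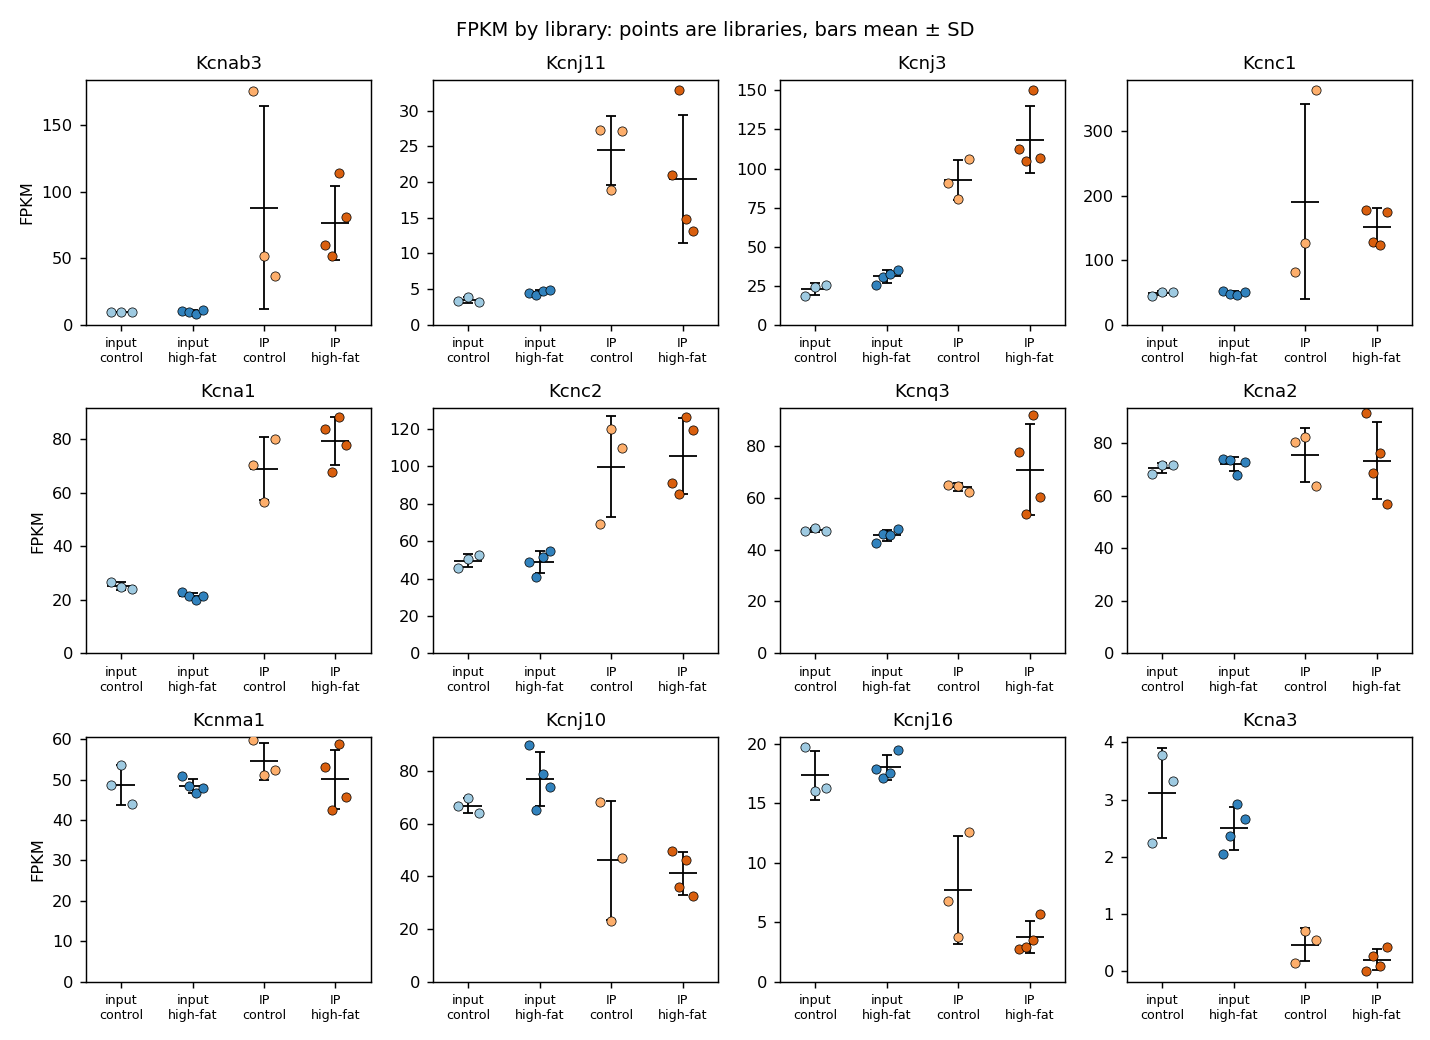
FPKM of 12 potassium channel genes in each library, by fraction and diet, each panel on its own axis. Points are libraries and bars are the mean ± SD of 3 or 4 libraries. The first 7 genes are higher in IP, Kcna2 and Kcnma1 overlap between fractions, and Kcnj16 and Kcna3 lie lower in every IP library.

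The remaining voltage-gated families gave smaller or mixed differences. Of the Kv4 pores, which carry A-type current in dendrites, Kcnd2 (Kv4.2) went from 11.97 to 16.3 FPKM in input to 13.9 to 33.9 in IP (log2 change 0.60 ± 0.17, adjusted p = 0.00817) and lost its call under quantile normalization (0.25). Kcnd1 (Kv4.1) was called at 1.35 ± 0.45 but overlapped, with 2.08 to 4.98 FPKM in input and 2.15 to 33.6 in IP, and its call ended in 3 of the 14 fits without 1 library. Kcnd3 (Kv4.3) did not pass at 0.29 ± 0.15, but did with the length trend removed, at 0.70, and without control-diet IP library 1, at 0.38. Kcnq3, a Kv7 pore of the M-current that restrains repeated firing, measured 42.6 to 48.5 FPKM in input and 53.5 to 92.03 in IP without overlap (log2 change 0.51 ± 0.13, adjusted p = 0.00467), but -0.20 under quantile normalization.

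Of the EAG and ERG genes, slow voltage-gated channels, Kcnh1 and Kcnh7 were called lower and Kcnh2 and Kcnh5 were not called. Kcnh7 (ERG3) measured 13.97, 15.9 and 14.8 FPKM in control-diet input, 12.6, 15.4, 14.7 and 15.1 in high-fat input, 7.87, 7.05 and 19.6 in control-diet IP and 13.1, 5.82, 5.65 and 5.997 in high-fat IP. In each diet 1 IP library reached input levels, and the call (log2 change -0.70 ± 0.24, adjusted p = 0.0297) ended in 11 of the 14 fits without 1 library. With the length trend removed it was -0.0190, its longest transcript having 13321 bases. Its exons overlap those of Gca on the other strand, which went from a mean of 12.1 FPKM to 4.10. Kcnh1 (EAG1) was near the level limit for testing, and its call at -0.67 ± 0.26 ended in 11 of those fits and with the length trend removed, at -0.26. The sodium-activated channel Kcnt1 (Slack) fell from 8.45 to 10.6 to 2.72 to 9.10 FPKM, with an overlap on control diet (log2 change -0.74 ± 0.22, adjusted p = 0.0135), and lost its call with the length trend removed, while Kcnt2 (Slick) did not pass at -0.67 ± 0.43. The small-conductance calcium-activated channels Kcnn2 and Kcnn3, which slow firing after bursts, did not pass, at -0.04 ± 0.38 and -0.28 ± 0.15.

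Among the K2P leak channels, Kcnk1 (TWIK-1) was higher and Kcnk9 (TASK-3) lower. Kcnk9 measured 14.3, 15.97 and 14.8 FPKM in control-diet input, 14.4, 16.2, 13.6 and 14.4 in high-fat input, 11.5, 9.23 and 10.6 in control-diet IP and 6.37, 10.2, 8.58 and 7.54 in high-fat IP, without overlap. Its log2 change was -0.64 ± 0.16 (SE; adjusted p = 0.00417), and it became 0.00763 with the length trend removed, its longest transcript having 12300 bases. Kcnk1 rose from 16.6 to 20.6 FPKM to 16.2 to 47.9 with an overlap at 16.2 in a high-fat IP library (log2 change 0.82 ± 0.21, 0.38 and no call under quantile normalization). Kcnk2 (TREK-1), Kcnk3 (TASK-1) and Kcnk10 (TREK-2) did not pass, at 0.52 ± 0.24, 0.62 ± 0.24 and 0.11 ± 0.32. Kcne4, the only KCNE subunit tested, did not pass at 0.56 ± 0.30.

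These differences moved the make-up of the channel transcript pool. The Kv3 genes took 13.0% ± 0.705 (SD, n = 7) of the summed channel FPKM in input and 21.0% ± 4.92 in IP, with an overlap through control-diet IP library 0 at 12.6%. Kv beta genes went from 3.78% ± 0.261 to 8.36% ± 3.04, with no overlap. Sodium-activated channels went from 2.29% ± 0.114 to 0.947% ± 0.398, again without overlap. The Kir share went from 19.4% ± 1.27 to 16.1% ± 1.37, while its content turned over: Kcnj10 went from 7.85% to 2.82% and Kcnj3 from 2.95% to 7.004%. The ratio of Kcnj3 to Kcnj10 rose from a median of 0.397 to 2.91, with ranges of 0.276 to 0.473 and 1.33 to 3.49. These shares describe the libraries and were not tested.

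**Figure D3:**
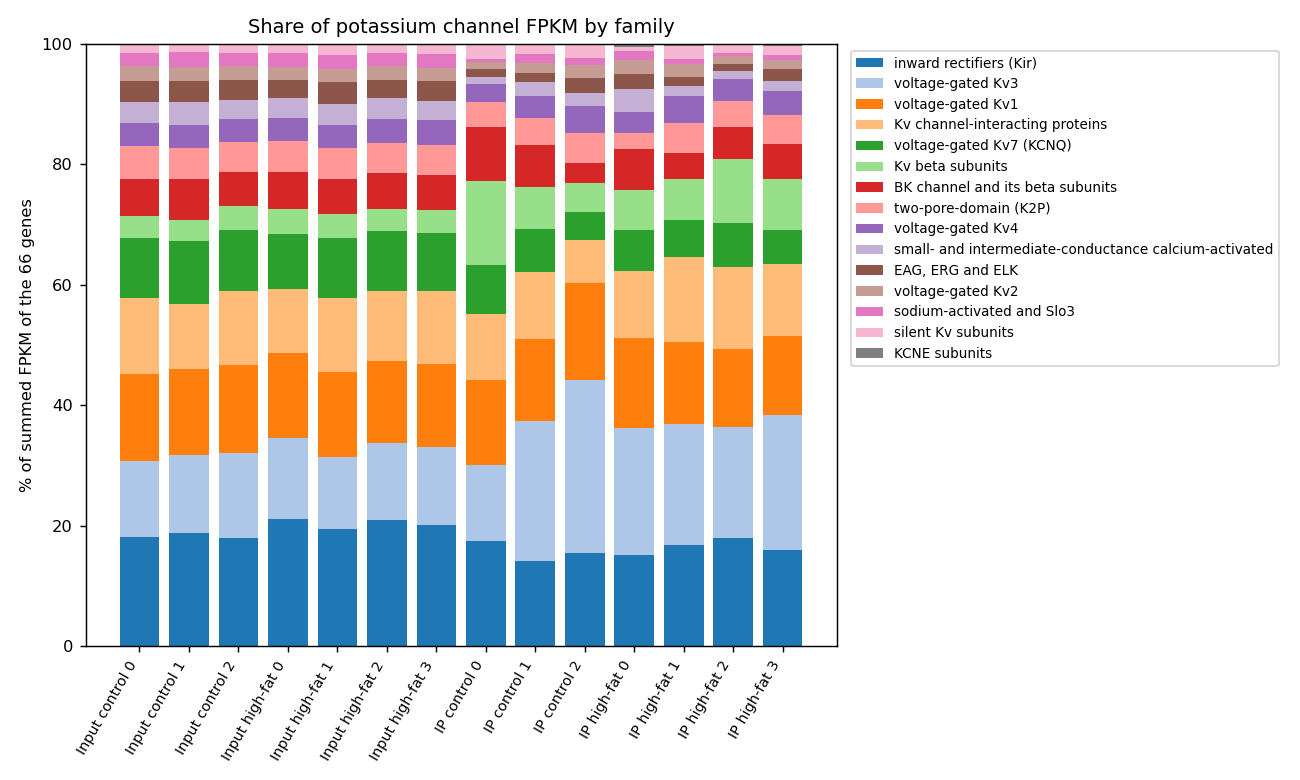
Share of the summed FPKM of the 66 genes taken by each of 15 families, in percent, in each of the 14 libraries numbered as in the deposited columns. The 7 input bars are nearly alike, and every IP bar holds a larger Kv beta segment than any input bar, from 4.88% to 13.9%. The Kv3 segment is larger in 6 of the 7 IP bars than in any input bar.

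Change in IP went with transcript length. Across the 57 genes the Spearman correlation of the log2 change with the longest annotated transcript was -0.42, and across 12474 entries with a length it was -0.41, as descriptions across genes that share libraries. Channel genes are long, with a median longest transcript of 4389 bases against 3372 for all tested entries. The 6 channel genes of up to 2500 bases had a median change of 0.76 against 0.54 for all entries of that length, and the 26 from 2500 to 5000 bases 0.52 against -0.07. The 16 from 5000 to 8000 bases had 0.20 against -0.39, and the 9 above 8000 bases -0.28 against -0.62. In each bin the channel median was above that of entries of the same length, and both medians fell from bin to bin. Exons of 19 of the 57 genes overlap an exon on the opposite strand, among them those of Kcna6, Kcnj3 and Kcnab1. The Kcna6 partner Gm26673 had means of 0.385 FPKM in input and 3.55 in IP. Gm26794, the Kcnj3 partner, had 0.610 and 1.68, and A330015K06Rik, a Kcnab1 partner, had 3.24 and 1.115.

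**Figure D4:**
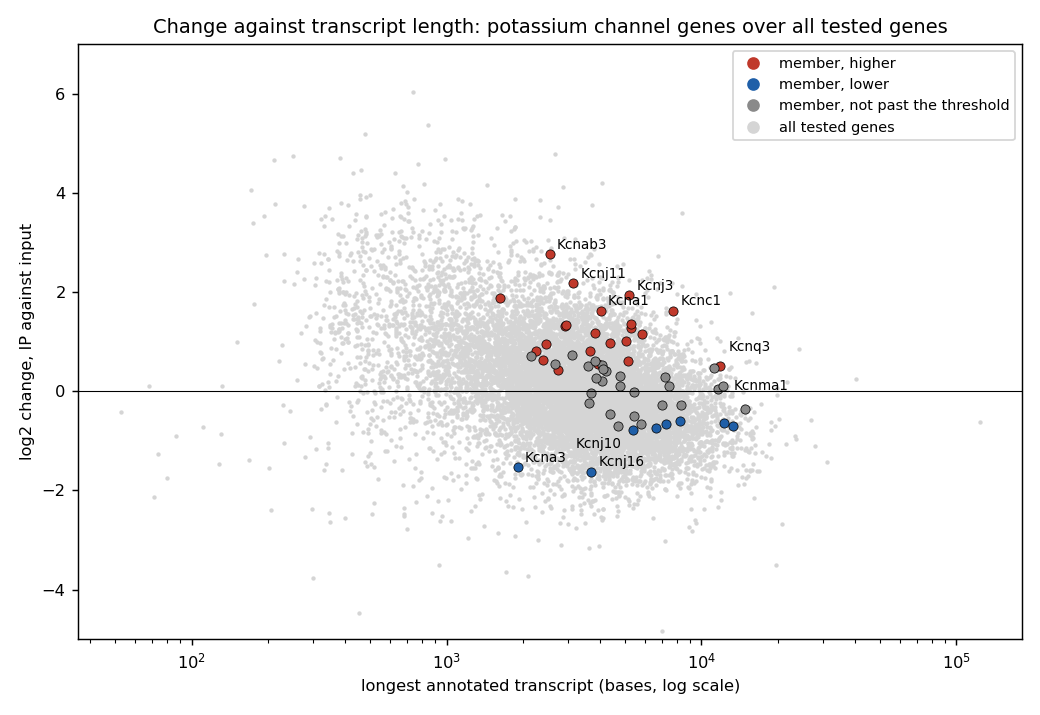
Log2 change in IP against input by longest annotated transcript in bases (log axis), for all tested entries with a length (light grey) and the 57 potassium channel genes. Red genes are higher, blue lower and dark grey not past the threshold. Kcnj3, Kcnc1 and Kcnq3 sit above 0 at lengths where the median of all entries is below 0, and 6 of the 8 blue points lie above 5000 bases.

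Within each diet the comparison was less precise, and the total of channel calls was close to the background. By direction, higher calls were above the background share and lower calls below it. On control diet 13 genes were higher and 2 lower, which is 26.3% called against 26.5% of all entries (22.8% higher against 15.7%, and 3.51% lower against 10.8%). On high-fat diet 15 were higher and 7 lower, which is 38.6% called against 33.6% (26.3% higher against 19%, and 12.3% lower against 14.6%). Quantile normalization gave 12 higher and 8 lower on control diet, against 1741 and 2213 of all 12484 entries. On high-fat diet it gave 12 and 11, against 2221 and 2692. Both comparisons rest on separate libraries, and a difference in calls between them is not a test of diet. The direct test of that, the difference of the diet effects between IP and input, called 0 channel genes and 1 of all entries (0.00801%), with 2 channel genes at an unadjusted p under 0.05 (3.51% against 6.77%). Without control-diet IP library 1 it called 0 channel genes but 60 entries higher and 68 lower, with 9 channel genes and 1954 entries at an unadjusted p under 0.05. The 2 were Kcne4, at 1.60 ± 0.61 (SE; adjusted p = 0.685), and Kcnip4, at 0.61 ± 0.27 (adjusted p = 0.733). Other differences, short of an unadjusted p of 0.05, included -1.32 ± 0.80 for Kcnmb2 and -0.96 ± 0.57 for Kcng1.

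High-fat diet was compared with control diet within each fraction, to see whether 3 days of diet changed channel transcripts in the tissue or on phosphorylated ribosomes. In IP, 0 of the 57 genes passed and 0 of all entries (0%), with 1 channel gene at an unadjusted p under 0.05 (1.75% against 5.72%). A single fit over all 14 libraries called 0 channel genes but 32 entries higher and 43 lower, with 7 channel genes and 2209 entries at that unadjusted level. Without control-diet IP library 1, 0 entries were called, and 4 channel genes and 1303 entries reached that level. In the fit to IP alone the gene was Kcne4, a subunit that restrains some Kv1 and Kv7 channels, at 0.788, 1.09 and 0 FPKM on control diet and 7.85, 4.08, 1.08 and 5.22 on high-fat diet. Of the 4 high-fat libraries, 3 were above all control libraries and 1 overlapped them (log2 difference 1.66 ± 0.62, unadjusted p = 0.0213, adjusted p = 0.812). In 2 genes the diets did not overlap in IP (3.51% against 6.34%), Kcnh1 higher at 0.76 ± 0.49 and Kcns2 lower at -0.81 ± 0.57. The standard errors of the 57 differences in IP ran from 0.26 to 0.93, and a difference well over its standard error, as for Kcne4, did not pass the adjusted test. Kcnj3, the most precise, had a 95% interval of -0.23 to 0.91. Other members with small unadjusted p or large differences, such as Kcnip4 at 0.55 ± 0.29, Kcnf1 at 1.08 ± 0.64, Kcnmb2 at -1.41 ± 0.75 and Kcnj16 at -0.78 ± 0.57, also failed the adjusted threshold.

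In input the libraries were much closer, with standard errors from 0.067 to 0.285, and again 0 of 57 channel genes and 0 of all entries (0%) passed. At an unadjusted p under 0.05 there were 4 channel genes (7.02% against 5.72%), with a smallest adjusted p of 0.845. Kcnj3 was at 18.5, 24.4 and 25.4 FPKM on control diet and 25.6, 30.9, 32.2 and 35.01 on high-fat diet, each high-fat library above each control library (log2 difference 0.43 ± 0.14, unadjusted p = 0.0107). Kcnj11 was likewise apart (0.30 ± 0.12), at 3.39, 3.96 and 3.14 against 4.41, 4.12, 4.80 and 4.84. Kcna1 was at 26.8, 24.8 and 23.9 FPKM against 22.7, 21.5, 19.9 and 21.4, each high-fat library below each control library (-0.23 ± 0.08). Kcnj6 overlapped (0.32 ± 0.13). In all, 6 genes did not overlap between diets in input (10.5% against 6.8%), the others being Kcna6, Kcnb2 and Kcnip3, and none is a change by the adjusted test. The authors' deposited table gives its own unadjusted p for the diet difference of IP to input ratios, and it is under 0.05 for 0 of the 57 tested genes, for 1 of all 66 and for 2.88% of all entries.

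**Figure D5:**
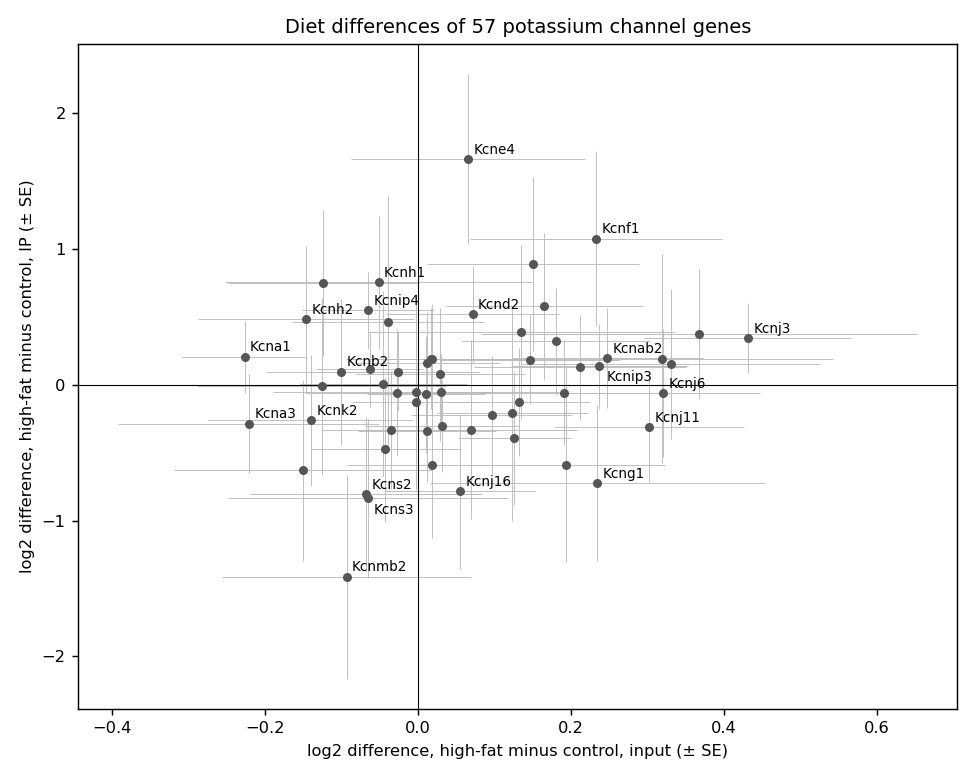
Log2 difference of high-fat against control diet in input (horizontal) and in IP (vertical) for the 57 tested potassium channel genes, with bars of 1 standard error. The IP axis covers a wider range, the standard errors are 0.26 to 0.93 in IP and 0.067 to 0.285 in input, and 0 genes pass the adjusted threshold on either axis.

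Genes that work with potassium channels were read from fixed lists. Of 18 tested channel partners, 8 were higher in IP, 2 lower and 8 not called, with a median log2 change of 0.41. Of all entries 23.4% were higher and 20.5% lower, and the lists were not tested as sets. Dlg4, the scaffold PSD-95 that clusters Kv1 channels, went from 85.3 ± 6.25 FPKM (SD, n = 7) to 458 ± 108 (log2 change 2.33 ± 0.12, SE). Calm3, which encodes calmodulin, the calcium sensor of the SK and Kv7 channels, rose by 1.67 ± 0.19. Vapa, a contact-site protein that clusters Kv2 channels, rose by 1.23 ± 0.23. Cntn2, an axonal adhesion protein that anchors Kv1 channels beside nodes, was lower (-1.23 ± 0.39), as was Ank3 (-0.51 ± 0.15), the initial-segment scaffold.

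Sodium-potassium pump subunits, which restore the potassium gradient, were higher in 5 of 9 cases and lower in 1. The shares of all entries were 23.4% higher and 20.5% lower. Fxyd7 (2.71 ± 0.29) and the beta subunit Atp1b1 (1.34 ± 0.10) were among the higher, with Fxyd1 at 1.58 ± 0.26. Of 3 tested cation-chloride cotransporters 1 was lower, Slc12a2 at -1.62 ± 0.32, and the neuronal exporter Slc12a5 did not pass (-0.23 ± 0.14). In the diet comparisons 0 genes of these lists were called in IP or in input.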

How the data were processed

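RNA of phospho-S6 ribosome immunoprecipitates and of input was sequenced after amplification from poly(T) and random primers, per the labels' protocols. The deposited FPKM values were made by the authors with Cuffdiff, Cufflinks 2.2.1, StringTie 1.3.4d and HISAT2 2.1.0 on GRCm38.p6, per the submitters' processing notes, which give no role or order. The authors' deposited ratio columns equal IP over input FPKM of the same number (all 96385 entries checked, relative tolerance 0.001). The authors' deposited p-value and log2 fold score compare the diets on these ratios, and only the p-value was used, as a description. Depth is unknown.

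Entries with a mean FPKM of at least 1 were tested with limma 3.58.1 in R 4.3.3 on log2(FPKM + 1), pseudocount 1, two-sided, with trended empirical Bayes and Benjamini-Hochberg adjustment over 12484 entries, threshold 0.05. IP versus input and the difference of diet effects used 1 fit of 4 groups, and diet was fitted within each fraction. The procedure was tested on simulated data, where the share of false calls for IP versus input was above the threshold of 0.05. Each IP pools mice, so p-values measure the spread between pools. The fit of 4 groups shares 1 spread per gene over IP and input, although IP libraries varied more than input libraries. Alternatives were pseudocount 0.1, no filter, median-ratio and quantile scaling, removal of the length trend, a replicate block, leave-outs and, chosen after seeing the data, array weights. Lengths and positions came from GENCODE M21 (all 66 genes matched).

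The genes, lists and tests were chosen with earlier results of these data known. Named genes were the smallest p without overlap (up to 10 per direction in IP versus input), up to 5 per direction in diet comparisons, the most abundant of each family and of all, those beside the filter, and channels of known role. Other members are named to account for the rest, and a few genes are not reported here.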

Additional observations from a re-analysis of the deposited data

Results flagged for a closer look

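In 5 of 96 groups of 4 libraries examined, 1 library lay far from the other 3 by Dixon's criterion, and chance flags about 1 in 20 groups. In high-fat IP, Kcnh7 reached 13.1 FPKM in 1 library against 5.65 to 6.00 in the others. Kcnj3 reached 150.2 FPKM in 1 high-fat IP library against 105 to 112. Kcnn2 reached 40.3 FPKM in 1 high-fat IP library against 5.42 to 10.1. Kcns2 was at 0.970 FPKM in 1 high-fat IP library against 3.13 to 3.39. In high-fat input, Kcns3 reached 1.71 FPKM in 1 library against 1.65 to 1.66. The library behind the Kcnh7, Kcnn2 and Kcns2 values is the high-fat IP library numbered 0, which also had the largest mitochondrial share of its group.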

How the results depend on the processing

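The FPKM files limit every statement to the spread between pools, and depth could not be set beside any value. Diet comparisons called 0 channel genes under every alternative run. The count of channel genes at an unadjusted p under 0.05 moved: with 1 library left out it was 1 to 4 for diet in IP, 2 to 5 for diet in input and 1 to 9 for the difference of diet effects. All entries at that level numbered 535 to 1303, 596 to 808 and 537 to 1954 of 12484 in these fits. The difference of diet effects called 1 entry higher and 6 lower without control-diet IP library 0, and 3 and 9 without both IP libraries numbered 0. Diet in input over all 14 libraries in 1 fit gave 1 channel gene and 28 entries at that unadjusted level. For IP against input over both diets, leaving out 1 library gave 18 to 27 higher and 6 to 10 lower calls, and 16 of the 22 higher and 6 of the 8 lower calls held in all of these fits. Of all 12484 entries, 2597 to 3307 were higher and 2088 to 2895 lower. On control diet the leave-outs gave 8 to 14 higher and 1 to 4 lower, against 1437 to 2306 and 711 to 1707 entries. On high-fat diet they gave 14 to 20 higher and 6 to 7 lower, against 1950 to 2795 and 1315 to 2362 entries. Removal of the length trend left 2 lower calls over both diets, against 2232 of 12474 entries, and 2 on high-fat diet, against 1431. On control diet a fit to that diet alone gave 7 higher, against 1320 of 12484 entries. Lower calls on that diet came to 4 with no filter (1526 of 14531 entries) and 8 under quantile normalization (2213 of 12484). They came to 6 without both IP libraries numbered 0 (2228 of 12484). On high-fat diet, array weights gave 24 higher, against 3022 of 12484 entries, and quantile normalization 11 lower, against 2692. The cause was not tested. With a pseudocount of 0.1 the median change of all entries moved to -0.10.

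Signs turned for these log2 changes over both diets. Under quantile normalization Kcna2 was -0.71, Kcnd3 -0.12, Kcnip3 -0.11, Kcnip4 -0.13, Kcnj9 -0.20, Kcnma1 -0.58, Kcnq3 -0.20, Kcns2 0.0664 and Kcnv1 0.0559. With the length trend removed Kcnb2 was 0.36, Kcnk9 0.00763, Kcnn2 0.0169, Kcnn3 0.20 and Kcns2 0.26. Median-ratio scaling gave Kcna2 -0.0497. Without both IP libraries numbered 0, Kcna2 was -0.0346 and Kcns2 0.0329. With 1 library left out, Kcna2 ran from -0.00990 to 0.10, Kcnf1 from -0.00208 to 0.47, Kcnj6 from -0.45 to 0.0169, Kcnn2 from -0.33 to 0.24 and Kcns2 from -0.10 to 0.12.

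Over both diets, genes not called passed as follows. Quantile normalization called Kcne4 (1.00), Kcng1 (0.93), Kcnj4 (1.11) and Kcnk3 (0.89) higher and Kcnj6 (-0.65) and Kcnn3 (-0.65) lower. The length trend removed called Kcnip1 (0.56) and Kcnk3 (0.70). Array weights called Kcnip2 (1.03) and Kcnj4 (0.81) higher and Kcnj2 (-0.84) lower. Without both IP libraries numbered 0, Kcnip1 (0.47), Kcnip2 (0.92), Kcnj4 (1.09), Kcnk2 (0.73) and Kcnk3 (0.61) passed. Leaving out high-fat IP library 0 called Kcng1, Kcnip1, Kcnip2, Kcnj4 and Kcnk2, and library 2 Kcne4 and Kcnk3. Leaving out control-diet IP library 0 called Kcnj4, Kcnk2 and Kcnk3, library 1 Kcnip1 and Kcnk3, and library 2 Kcnj2 and Kcnn3. Lost calls not given above were Kcnj12 with a pseudocount of 0.1, median-ratio scaling or the length trend removed, Kcnip3 with median-ratio scaling, array weights, the length trend removed or both IP libraries numbered 0 left out, and Kcnh1 under quantile normalization (-0.22).

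IP and input libraries of the same diet and column number are paired in the authors' ratios, but no label says what a number shares. Correlations of their deviations ran from -0.00429 to 0.0581, and 6 of the 7 IP libraries correlated most with their own number. Those matches point towards pairing, but with correlations this small it was not settled, and the main fit did not pair libraries. The replicate block gave 22 higher and 6 lower calls over both diets, without Kcnh1 and Kcnh7, against 2818 and 2356 of all 12484 entries. On control diet it gave 11 and 2, against 1790 and 1062.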
